A study of Mus musculus with 4 samples.

Results

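The DNA replication and mitosis genes examined here are 38 mouse genes listed by name, 16 for DNA replication and 22 for mitosis, and their members are all probe sets that the platform annotation gives to these symbols. Of the 22626 probe sets on the array that are not controls, 69 were found for 37 of the 38 genes: 35 for the 16 replication genes and 34 for 21 of the mitosis genes. Ccnb1, a B-type cyclin, was not analysed here, since no probe set carried its symbol. The rule goes by gene name and uses no measured value, but the genes were listed with earlier results of these data known.

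RNA of CH10T1/2 cells, a mouse embryonic fibroblast line, was hybridised to 4 Affymetrix Mouse Genome 430A 2.0 arrays in a 2 by 2 layout with 1 array per group. One line was stably transfected with normal PTHR1, which binds PTH and PTHrP (the WT line), and the other with the R150C variant of this receptor, which was found in enchondromas, benign cartilage tumours (the R150C line). All cells of both lines were kept overnight in medium without serum. The 4 groups are the WT line with control medium, the WT line with 1e-07 M PTHrP for 1 h, the R150C line with carrier and the R150C line with 1e-07 M PTHrP for 1 h. The labels of the WT control sample call the cells controls and name no carrier. Each receptor is represented by 1 transfected line, so receptor and line cannot be told apart, and the sources used here do not say whether a line is a single clone.

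Replication begins with licensing, in which Cdc6 and Cdt1 load the MCM helicase onto origins of replication and geminin (Gmnn) binds Cdt1 to stop a second round. Genes of the S phase are largely driven by E2F factors once the Rb family lets them go, while genes of G2 and mitosis are repressed by the DREAM complex in resting cells and activated by B-Myb and FoxM1 through the CHR element, often beside CCAAT boxes bound by NF-Y. In fibroblasts without serum most cells leave the cycle, and the RNA of both sets is known to fall. In bulk RNA, fewer cycling cells and less RNA per cycling cell cannot be told apart.

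These control elements can be read from promoter sequences, and were searched for around the annotated start of each gene. The windows ran from 250 bases before to 50 bases after the start (RefSeq, build GRCm38.p6, the first window listed for each gene). A window was available for 14 of the 16 replication genes and 18 of the 22 mitosis genes. The E2F words TTTGGCGC, TTTCGCGC, TTTCCCGC and TTTGCCGC, on either strand, were in 7 of 14 replication windows, 1 of 18 mitosis windows (5.56%) and 2.32% of 27025 windows of all genes. The CHR word TTTGAA, on either strand, was in 1 replication window (7.14%), 13 mitosis windows (72.2%) and 18.1% of all windows. The word CCAAT, on either strand, was in 10 replication windows (71.4%), 15 mitosis windows (83.3%) and 37.9% of all windows. CHR and CCAAT stood together in all 13 mitosis windows with CHR, which is 72.2% of the mitosis windows, against 7.12% of all windows. Among the 5117 windows of genes bright enough to be kept in the expression analysis, E2F words were in 4.75%, CHR in 11.9% and CCAAT in 39.0%. A match is a description of these letters and does not show binding.

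The stretches just before the start are printed for 5 members, because 3 of them (Cdc6, Kif11 and Mki67) are genes found lower in the R150C line, and because Mcm6 has the most E2F words of the members with a window and Cdk1 is the 1 mitosis gene with an E2F word. Cdc6 lies at chr11:98907991-98908150 (plus strand), Kif11 at chr19:37376262-37376381 (plus), Mki67 at chr7:135716380-135716579 (minus), Mcm6 at chr1:128359706-128359845 (minus) and Cdk1 at chr10:69352913-69353062 (minus). Each is written from 5′ to 3′ on the strand of its gene and ends at the base before the start. Capitals mark matches to the E2F, CHR and CCAAT words on either strand, and a word on the other strand appears as its reverse complement. In Mcm6 a pair of E2F words on opposite strands overlap.
Cdc6: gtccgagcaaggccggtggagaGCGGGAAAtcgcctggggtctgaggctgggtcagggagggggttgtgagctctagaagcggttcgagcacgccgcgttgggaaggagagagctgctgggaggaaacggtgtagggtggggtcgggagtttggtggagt
Mcm6: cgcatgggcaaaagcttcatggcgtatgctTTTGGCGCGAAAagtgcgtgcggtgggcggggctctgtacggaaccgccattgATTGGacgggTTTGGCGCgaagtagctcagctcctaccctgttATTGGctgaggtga
Kif11: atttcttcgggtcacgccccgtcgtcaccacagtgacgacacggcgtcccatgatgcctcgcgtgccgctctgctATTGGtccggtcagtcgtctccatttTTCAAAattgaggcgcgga
Mki67: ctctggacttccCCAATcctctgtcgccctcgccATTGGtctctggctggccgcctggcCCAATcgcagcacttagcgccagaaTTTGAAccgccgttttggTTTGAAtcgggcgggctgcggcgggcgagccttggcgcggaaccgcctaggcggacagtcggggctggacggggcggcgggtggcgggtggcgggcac
Cdk1: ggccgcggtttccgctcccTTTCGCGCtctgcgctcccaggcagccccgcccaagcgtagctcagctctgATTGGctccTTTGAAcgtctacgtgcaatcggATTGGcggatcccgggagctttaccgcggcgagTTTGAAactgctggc
The Cdc6 stretch held 1 E2F word and neither of the other words, and that of Mcm6 held 3 E2F words and 2 CCAAT words. Those of Kif11 and Mki67 held CHR (1 and 2) and CCAAT (1 and 3) but no E2F word. The stretch of Cdk1, the kinase that drives entry into mitosis, held all of these words.

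The array values are signals on a linear scale, with the same trimmed mean in every array (the highest and lowest 2% of the probe sets left out). Fibroblast markers were present: 10 of 12 lay above the level filter described below, with a median signal between 1163.6 and 1332.6 in the 4 arrays. Of 31 markers of cartilage, muscle, fat, macrophages, endothelium and epithelium, 7 did (Col2a1, Sox9, Fabp4, Pparg, Csf1r, Cd14 and Krt8), and the median of all 31 lay between 19.4 and 28.0. The WT control array had the lowest ratios in the control probe sets for the 2 ends of transcripts, more clearly for beta-actin than for Gapdh. Its 3′ to 5′ signal ratio was 1.42 for beta-actin against 2.39, 2.13 and 2.31 in the WT PTHrP, R150C control and R150C PTHrP arrays, and 0.845 for Gapdh against 1.17, 0.991 and 1.21. It was also at least 1.5-fold above every other array in 228 of 9961 probe sets over the filter (2.29%), a count that was 28, 15 and 8 for the other arrays in the same order. The comparison of the lines under PTHrP does not use this array. It is given beside called genes, list medians and most other members, and the plot of differences by medium shows it for all 36 kept members.

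For each gene the probe set with the highest mean stood for the gene, and 6197 of 12393 genes were kept whose mean log2(signal + 16) lay at or above the median over genes, which corresponds to a signal of 62.6. Of the members 36 genes were kept, 15 for replication and 21 for mitosis. Tyms, the thymidylate synthase gene, was under the filter: its 3 probe sets read between 0.9 and 20.1 in the 4 arrays. Differences are on the scale log2(signal + 16) with each array centred on the kept genes, and understate the change of dim genes. The first question was which members have another level in the R150C than in the WT line. Over both media 4 of the 36 members, the licensing genes Gmnn and Cdc6, the spindle motor gene Kif11 and the proliferation marker Mki67, were lower in the R150C line by limma's additive model, and none was higher. That is 11.1% of the members, against 4.18% of all kept genes called lower and 5.52% called higher. The other 32 members did not pass. An unadjusted p under 0.05 by limma was reached by 10 members, all of them lower in the R150C line. The share of all kept genes at this threshold was not counted, so these 10 cannot be set against a background.

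Gmnn, the inhibitor of Cdt1, read 315.8 in WT control, 311.4 in WT PTHrP, 169.6 in R150C control and 195.2 in R150C PTHrP, the order used below. Both R150C arrays lay below both WT arrays. The difference was -0.87 in control medium and -0.65 under PTHrP, and -0.76 (SE 0.151) over both media, a 1.7-fold lower level with an adjusted p of 0.0094 by limma. Cdc6, the ATPase that loads the helicase, read 105.3, 214.1, 87.9 and 71.9. The high WT PTHrP array carries most of its difference, which was -0.26 in control medium and -1.41 under PTHrP. Over both media it was -0.83 (SE 0.23), with an adjusted p of 0.0455 by limma. Cdt1, the partner of Cdc6 and target of geminin, read 711.8, 865.6, 624.0 and 592.5. Its difference was -0.22 in control medium and -0.56 under PTHrP, and that over both media, -0.39 (SE 0.156), had an adjusted p of 0.15 by limma and did not pass, although both R150C arrays were the lower ones.

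Kif11, the plus-end kinesin that pushes the spindle poles apart, read 124.6, 108.5, 63.3 and 68.2. The R150C arrays lay below both WT arrays, with differences of -0.86 and -0.58 in the separate media, and -0.72 (SE 0.153) over both, 1.65-fold lower, with an adjusted p of 0.0137 by limma. Mki67, which encodes a coat protein of mitotic chromosomes widely used as a marker of cycling cells, read 535.7, 601.9, 376.9 and 403.7. Here too the lines did not overlap, at -0.52 and -0.58 in the separate media and -0.55 (SE 0.147) over both, 1.46-fold lower, with an adjusted p of 0.0407 by limma. A separation of this kind, both R150C arrays below both WT arrays on the centred scale, was seen in 20 of the 36 members (55.6%) against 33.2% of all kept genes, and the opposite in 3 members (8.33%) against 23.0%. The calls of Gmnn and Kif11 held under all 4 scalings (largest adjusted p by limma 0.017 and 0.0295), those of Cdc6 and Mki67 did not (0.115 and 0.0694), and with no filter on low genes none of the 4 was called (adjusted p 0.141 to 0.297 by limma).

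**Figure D1:**
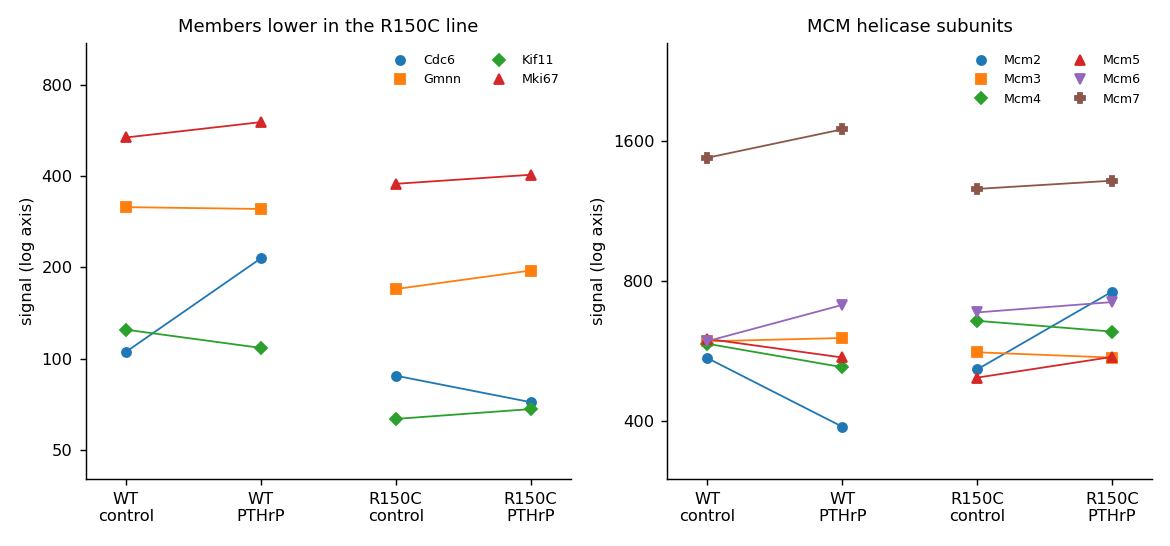
Signal (log axis) in each of the 4 arrays for the 4 members lower in the R150C line (left) and the 6 MCM helicase genes (right); each point is 1 array and lines join control and PTHrP within a line. Gmnn, Kif11 and Mki67 lie lower in both R150C arrays than in both WT arrays, Cdc6 is highest in the WT PTHrP array at 214.1, and the MCM genes keep no common order.

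Among the MCM helicase genes, read by their brightest probe sets, none of the 6 passed, and their fitted differences ran from -0.32 for Mcm7 to 0.40 for Mcm2, with a median of -0.02. Mcm7 read 1471.9, 1694.0, 1261.6 and 1313.9, and both R150C arrays were lower. Mcm4 went the other way, with 586.7, 522.6, 657.2 and 623.1, a difference of 0.18 (SE 0.148; adjusted p 0.489 by limma). Mcm5 (-0.16) and Mcm6 (0.08) were closer to 0, and the second read 594.3, 710.9, 685.1 and 720.9. Mcm3 had -0.13 in its brightest probe set but -0.42, -0.58 and -0.49 in the other 3 above the filter, and -0.31 when its probe sets were averaged.

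Mcm2 depended on the probe set. Its brightest one, 1434079_s_at, read 546.5, 389.3, 516.7 and 759.1 and gave -0.11 in control medium and 0.91 under PTHrP. The second, 1448777_at, read 461.1, 464.7, 367.3 and 382.7 and gave -0.35 and -0.29. The suffix _s_at marks probes that can match more than 1 transcript. Mcm7 was the other member whose probe sets disagreed in sign by more than 0.3 over both media, since 1439269_x_at (110.4, 53.4, 106.5 and 109.4) gave 0.38 and its other 3 probe sets gave differences down to -0.36.

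At the fork, the clamp loader subunit gene Rfc4 read 131.0, 121.9, 79.2 and 92.4. Both R150C arrays were the lower ones, at -0.66 in control medium and -0.37 under PTHrP, and its difference of -0.51 (SE 0.154) over both had an adjusted p of 0.0619 by limma. The sliding clamp gene Pcna read 2833.1, 2630.4, 2364.6 and 2321.0, with -0.29 in control medium, -0.20 under PTHrP and -0.25 (SE 0.148) over both. The primase gene Prim1 (-0.03) and the polymerase alpha gene Pola1 (0.09) showed little difference in their brightest probe sets. The second probe set of Prim1 gave -0.37. Of the ribonucleotide reductase subunits, Rrm1 had -0.27 (-0.25 under PTHrP) and Rrm2 had 0.20 (0.38 under PTHrP). The Rrm2 signals were 1521.8, 1440.1, 1575.2 and 1901.4, and its other probe sets gave -0.17 and 0.33 over both media. Over the 15 kept replication genes the median was -0.22 in control medium, -0.16 under PTHrP and -0.16 over both media, where all kept genes had -0.04, -0.07 and -0.06.

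Mitosis genes lay closer together, and more on one side. Over the 21 genes the median was -0.21 in control medium, -0.22 under PTHrP and -0.22 over both, and the fitted differences ran from -0.72 for Kif11 to 0.06 for Ccnb2. In control medium 20 of the 21 lay below 0 (95.2%) against 54.9% of all kept genes, and under PTHrP 14 did (66.7%) against 57.6%. Of the replication genes 11 of 15 (73.3%) and 10 of 15 (66.7%) did. The excess below 0 was thus smaller in the comparison without the WT control array. The 10 kept fibroblast markers, which are not cell cycle genes, were also lower, with a median of -0.11 in control medium, -0.34 under PTHrP and -0.28 over both. Of these 10, 7 lay below 0 in control medium and all 10 under PTHrP. The growth factor receptor gene Pdgfra was called lower (-0.55, adjusted p 0.0427 by limma; largest over the 4 scalings 0.0732). Whether this shift and that of the members have a common source was not tested. Below 0 in both media, which share no array, were 22 of the 36 members (61.1%) and 40.4% of all kept genes. At 1.5-fold (0.58 on the log2 scale) the members were near the background: 3 lower in control medium (Gmnn, Rfc4 and Kif11) against 5.62% of all kept genes, and 2 lower under PTHrP (Cdc6 and Gmnn) against 5.26%. None was 1.5-fold higher in control medium (5.99% of all kept genes) and 1, Mcm2, under PTHrP (6.05%).

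**Figure D2:**
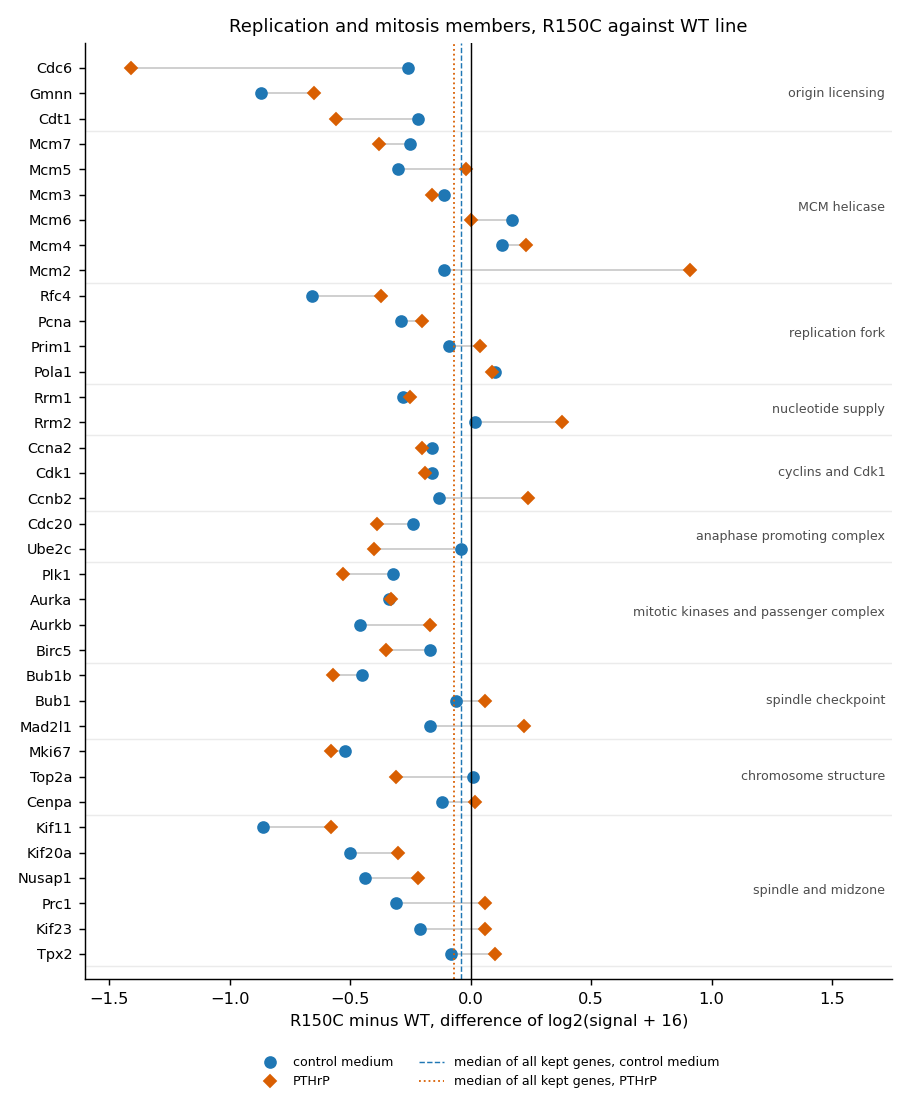
Difference of log2(signal + 16) between the R150C and the WT line for the 36 kept members, ordered by role, in control medium (circles) and under PTHrP (diamonds), with vertical lines at 0 and at the medians of all kept genes (-0.04 and -0.07). Most circles lie left of 0, 31 of 36 in control medium, while under PTHrP 24 of 36 diamonds do and the spread is wider, from -1.41 for Cdc6 to 0.91 for Mcm2.

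By role, the mitotic kinase and passenger group was below 0 in all 4 genes and in both media, with a median of -0.32 over both. It holds Plk1, a kinase of mitotic entry and exit (308.0, 319.6, 249.6 and 219.4; -0.43, and -0.53 under PTHrP alone), the spindle pole kinase gene Aurka (462.0, 445.1, 370.2 and 356.7; -0.33 and -0.33), the passenger kinase gene Aurkb (281.1, 271.0, 205.3 and 242.5; -0.31 and -0.17) and its partner survivin, Birc5 (1333.6, 1552.8, 1214.6 and 1232.0; -0.26 and -0.35). In each of the 4 both R150C arrays lay below both WT arrays, and none passed limma's test (smallest adjusted p 0.109). Of the anaphase promoting complex genes, the activator Cdc20 had -0.31 (-0.39 under PTHrP) and the ubiquitin-conjugating enzyme gene Ube2c -0.22 (-0.40 under PTHrP).

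The spindle checkpoint genes did not go together. Bub1b, which encodes the checkpoint inhibitor BubR1, read 250.9, 299.4, 183.2 and 199.6, with -0.45 in control medium and -0.57 under PTHrP, and its difference of -0.51 (SE 0.148) over both had an adjusted p of 0.0555 by limma. Its relative Bub1, with 186.4, 167.5, 182.6 and 177.9, had 0.00, and Mad2l1, the Mad2 gene, had 0.02. Among the cyclins and Cdk1, Ccna2 had -0.18, Cdk1 -0.17 and Ccnb2 0.06. The second probe set of Ccna2 gave -0.51. The Cdk1 signals were 1650.8, 1954.4, 1511.0 and 1736.2, so that the R150C PTHrP array lay above the WT control array.

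In the remaining groups the range was as wide. Top2a, the topoisomerase that untangles sister chromatids, had -0.15 and Cenpa, the centromeric histone, -0.05. In the spindle and midzone group Kif20a, a kinesin of the midzone, read 324.9, 274.6, 230.4 and 222.8 and had -0.40 (SE 0.15; adjusted p 0.127 by limma), from -0.50 in control medium and -0.30 under PTHrP. The microtubule-binding protein gene Nusap1 had -0.33 (-0.44 and -0.22 in the separate media). The midzone bundling protein gene Prc1 (-0.31 and 0.06) and the midzone motor gene Kif23 (-0.21 and 0.06) were below 0 in control medium and above 0 under PTHrP. Tpx2, the activator of Aurora A, had 0.01 in its brightest probe set and 0.39 in its second one. All 6 genes of this group lay below 0 in control medium (median -0.37) and 3 of 6 under PTHrP (median -0.08).

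For CHR and E2F words, members with and without the word had similar medians. Among the 30 kept members with a promoter window, the 14 with CHR had a median difference of -0.20 over both media and the 16 without it -0.20. The 8 with an E2F word had -0.17 and the 22 without it -0.23. For CCAAT the gap was wider: the 24 members with it had a median of -0.15 and the 6 without it -0.36. The ranges overlapped for each word, for CCAAT from -0.72 to 0.40 with it and from -0.83 to 0.02 without it. No test was made of these differences.

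Other genes of the same processes, not on the list of 38, lay on the same side. Of 34 kept genes of origins and forks 2 were lower, Timeless, a fork protection protein gene (237.5, 239.6, 99.0 and 110.5; -1.10, adjusted p 0.000886 by limma; -1.17 and -1.04 in the separate media), and Dtl, which directs Cdt1 to degradation (-0.79; -0.79 and -0.80). Orc4 of the origin recognition complex was higher (0.56; 0.46 and 0.65), and 31 did not pass. Of 12 nucleotide supply genes 2 were lower, the thymidine kinase gene Tk1 (1193.6, 1133.5, 395.6 and 750.7; -1.10, adjusted p 0.00807 by limma; -1.59 in control medium and -0.60 under PTHrP) and the thymidylate kinase gene Dtymk (-0.66; -0.90 and -0.41), and 10 did not pass. Of 54 other mitosis genes 10 were lower, none higher and 44 did not pass. The 4 largest of these were Sgo1, the cohesin protector (-0.82; -0.68 under PTHrP), the chromatin protein gene Hmgb2 (-0.79; -0.86), the spindle pole protein gene Aspm (-0.71; -0.89) and Cdca3 (-0.71; -0.66). Of these lists together 14 of 100 genes were called lower and 1 higher, against 4.18% and 5.52% of all kept genes. The lists were drawn up with earlier results of these data known, so they are no independent support for the members. The shares called lower were 5.88% of origin and fork, 16.7% of nucleotide supply and 18.5% of other mitosis genes. Over these 100 genes the median was -0.26, with 84.0% below 0 against 58.8% of all kept genes. In the separate media their medians were -0.22 and -0.25. Of 21 E2F, Rb and DREAM genes 1 was lower, Lin37 of the DREAM complex (-0.61; -0.50 and -0.72), and 20 did not pass. That share, 4.76%, was near the 4.18% of all kept genes. In 1 or more of the 4 scalings the calls of Lin37 and of Spc25, Mis12 and Melk among the other mitosis genes were lost (largest adjusted p by limma 0.0701, 0.0562, 0.0834 and 0.0725).

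**Figure D3:**
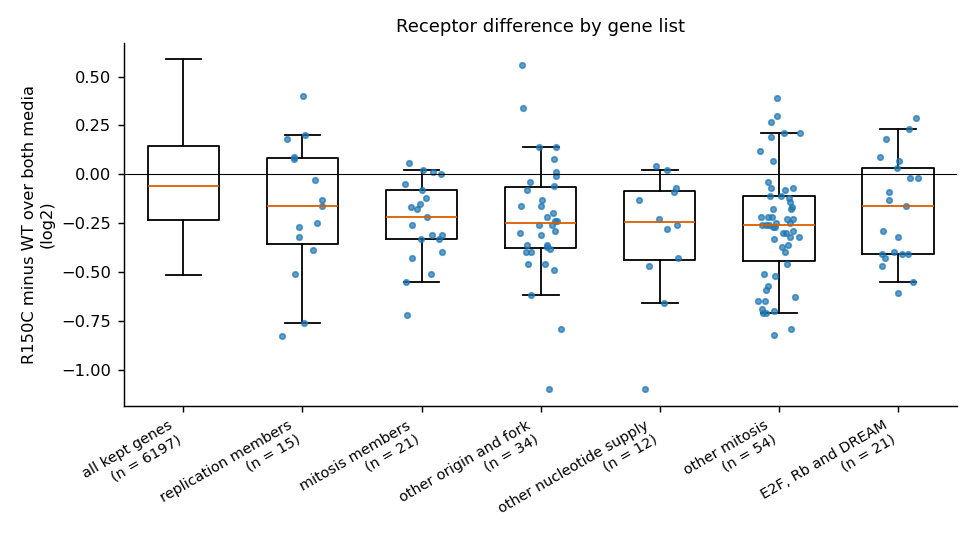
R150C minus WT over both media (log2) for all 6197 kept genes and for 6 gene lists; boxes give the median and quartiles, whiskers the 5th and 95th percentiles, and each point is 1 gene. The medians of the lists lie between -0.16 and -0.26, below that of all kept genes at -0.06, and the list points overlap the range of all genes.

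In some genes with several probe sets the WT control array stood apart in 1 probe set but not in another. The 22 probe sets of members over the filter that were not the brightest of their gene had a median of -0.35 in control medium and -0.26 under PTHrP, against -0.21 and -0.20 for the 36 brightest. Rrm1 read 947.0, 1163.6, 792.7 and 991.8 with 1415878_at, but 905.0, 457.6, 532.8 and 434.4 with 1448127_at. Mcm3 read 593.9, 603.7, 562.5 and 548.0 with 1420028_s_at, but 248.1, 110.3, 121.7 and 96.2 with 1426653_at. In both second probe sets the WT control array was at least 1.5-fold above every other array, whichever the receptor. These were the only 2 of 58 member probe sets over the filter to do so (3.45%), near the 2.29% of all probe sets. Kif11 behaved in the same way in 1452315_at, another of its probe sets (118.2, 40.4, 36.0 and 22.6), which lies under the filter, while 1435306_a_at (95.3, 90.1, 73.7 and 67.5) had -0.34 and -0.37 in the separate media. The position of these probe sets along their transcripts is not given in the files, and the part of the 3′ to 5′ ratio of the WT control array in these values was not tested.

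**Figure D4:**
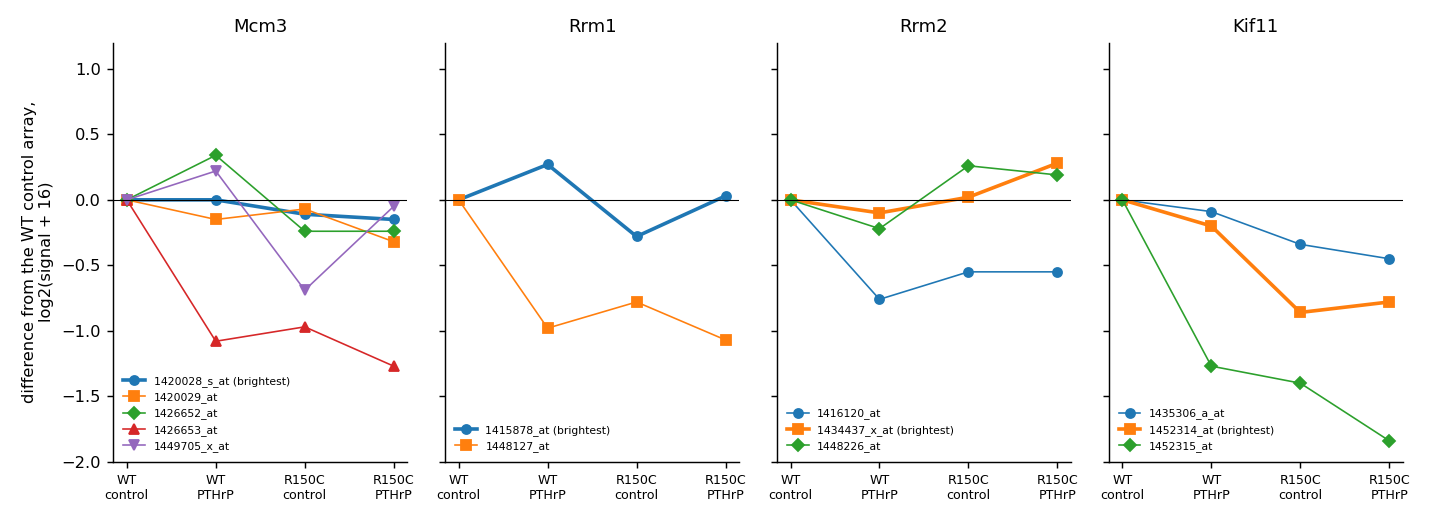
Difference of each array from the WT control array on the scale log2(signal + 16), for every probe set of Mcm3, Rrm1, Rrm2 and Kif11; thick lines are the brightest probe set of the gene and each point is 1 array. In 1426653_at, 1448127_at and 1452315_at all 3 other arrays lie well below the WT control array, while the brightest probe sets of Mcm3, Rrm1 and Rrm2 stay near 0.

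The PTHrP comparison asked what 1 h of ligand does through each receptor. No member was called by limma over both lines, as no kept gene was (0.0% in each direction). Of the members 1 reached an unadjusted p under 0.05 by limma, Kif23, which had 0.46 (SE 0.153) over both lines with an adjusted p of 0.773 by limma. The share of all kept genes at this threshold was not counted, so this 1 cannot be set against a background. Kif23 read 112.8, 148.3, 97.8 and 157.2, so both PTHrP arrays were above both controls. Its other probe sets, which lie under the filter, did not repeat this rise. In the WT and the R150C line 1450827_at gave 0.11 and -0.07, and 1453748_a_at gave -0.12 and -0.07. The members' median was -0.07 in WT and 0.05 in R150C cells, where all kept genes had 0.03 and -0.01. In the WT line 21 of 36 members lay below 0 (58.3%; all kept genes 45.4%) and in the R150C line 14 (38.9%; all kept genes 51.7%). Of the 36, 8 lay below 0 in both lines and 9 above 0 in both, where 24.1% and 27.0% of all kept genes did.

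In the WT line 1 member was 1.5-fold higher after PTHrP, Cdc6 (0.90), against 1.39% of all kept genes, and none 1.5-fold lower (2.34%). Of the other members, Rrm1 was the next highest for replication (0.27) and Kif23 (0.33) and Cdc20 (0.27) were the highest for mitosis. The lowest for replication were Mcm2 (-0.49) and Mcm4 (-0.18) and for mitosis Ccnb2 (-0.36) and Kif20a (-0.25). In the R150C line 1 member was 1.5-fold higher, Kif23 (0.60), against 1.19%, and none 1.5-fold lower (0.645%). Mcm2 (0.53) and Rrm1 (0.31) were the highest for replication, and Mad2l1 (0.23) was second for mitosis. The lowest for replication were Cdc6 (-0.25) and Pola1 (-0.09) and for mitosis Ube2c (-0.30) and Top2a (-0.20). Rrm1 had nearly the same value in both lines in its brightest probe set, but its second probe set gave -0.98 and -0.29. With 1 array per group the difference between the responses of the lines has no test.

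**Figure D5:**
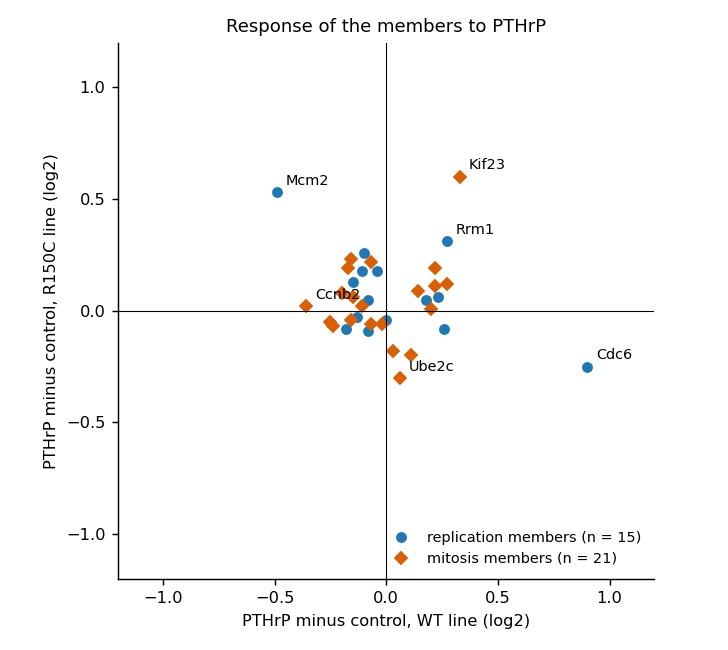
PTHrP minus control in the WT line (horizontal) against the R150C line (vertical), both as differences of log2(signal + 16), for the 15 replication (circles) and 21 mitosis members (diamonds). Most members lie near the centre in both lines, and Cdc6 (0.90 and -0.25), Mcm2 (-0.49 and 0.53) and Kif23 (0.33 and 0.60) lie apart.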

How the data were processed

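Total RNA of 4 cell cultures, 1 per group, was measured on 1-colour Affymetrix arrays. The deposited values are linear-scale intensity readings, 1 per probe set, for which the submitters' processing notes name Affymetrix Expression Console. Its version and summarisation algorithm were not given in the sources used here. With 4 arrays precision is low. Of 22626 probe sets other than 64 controls, 20380 had 1 gene symbol, 691 several and 1555 none; symbols were updated by Entrez identifier (20351 matched, GRCm38.p6). From the intensities log2(signal + 16) was computed, the brightest probe set stood for a gene, genes at or above the median mean were kept and arrays were centred on the kept genes. Centring on all probe sets, which left bright genes shifted in earlier results, became an alternative. limma 3.58.1 (R 4.3.3) fitted receptor plus treatment over 6197 genes, with Benjamini-Hochberg adjustment at 0.05. Its error comes from how far the 4 arrays depart from additivity (1 residual degree of freedom), moderated across genes; p-values measure only the spread between these arrays. The fit was also run on simulated data with the same spread for every gene, so that run does not show how reliable the calls are here. Single contrasts have no test. The spread of a difference between 2 arrays, from the same departure, was 0.25 (SD, log2). Members and lists were chosen with earlier results of these data known. Named are members with an adjusted p under 0.05, the 3 lowest and 3 highest of each list (replication, mitosis), the 2 lowest and highest PTHrP differences per line, the MCM genes, members whose probe sets disagree or lie under the filter, and up to 4 called genes of each other list; other members are described by role. Alternatives changed centring, pseudocount, filter and probe set summary; leaving out the WT control array and a mean-dependent spread were added after the data were seen.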

Additional observations from a re-analysis of the deposited data

Results flagged for a closer look

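PTHrP differences had opposite signs in the lines for 19 of 36 members, most of them by small amounts. Among all kept genes 3032 of 6197 did, so the members were near the background. In 2 members, Mcm2 and Cdc6, both differences were also larger, before rounding, than the spread of a difference between 2 arrays (SD 0.25, log2, from the departure from additivity). Mcm2, a subunit of the replicative helicase, had -0.49 in WT and 0.53 in R150C cells, a difference of 1.03 between the responses. Its second probe set had -0.01 and 0.05. Cdc6, the helicase loader, had 0.90 in WT and -0.25 in R150C cells, a difference of -1.15, from a single probe set. Past 1.5-fold, the response of the R150C line was lower in 1 member and higher in 1, against 241 and 298 of 6197 kept genes. At 2-fold these were the same 2 members, against 19 and 42 of all kept genes. With 1 array per group these differences were not tested.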

How the results depend on the processing

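No paired analysis was possible because each group has 1 array and the labels give no replicate numbers; the additive fit itself compares the lines within each medium. The number of members called lower by limma, 4 here, became 2 with quantile normalization, a pseudocount of 1 or the mean of all probe sets. It became 0 with no filter, where 35 genes in all were called lower and 112 higher. The number rose to 6 with no centring, which added Bub1b and Rfc4, and to 5 with a pseudocount of 64, which added Bub1b. In all, 319 and 276 genes were called lower in these settings. A mean-dependent spread also added Bub1b. With the filter at the 75th percentile the members called were Bub1b, Gmnn, Mki67 and Plk1. Counts at 1.5-fold moved as follows. R150C against WT in control medium, 3 lower and 0 higher, became 1 lower when filtered at the 75th percentile, then 6 lower and 1 higher with each probe set on its own. Under PTHrP, 2 lower and 1 higher became 5 lower with a pseudocount of 1, 1 lower with a pseudocount of 64 or the filter at the 75th percentile, 2 higher with no filter, 0 higher with the mean of all probe sets, and 6 lower and 2 higher with each probe set on its own. After PTHrP in the WT line, 1 higher became 0 when filtered at the 75th percentile; 0 lower became 4 with each probe set on its own. In the R150C line 1 higher became 2 with centring on all probe sets or each probe set on its own, and 0 with a pseudocount of 64, the filter at the 75th percentile or the mean of all probe sets. The filter at the 75th percentile leaves 30 members, so some counts fall by its construction; for the others the cause was not tested. Among the members followed by name, no difference between the lines changed sign in the settings that give 1 value per gene. With each probe set on its own, Mcm2, Mcm6, Mcm7 and Rrm2 had differences of both signs over both media. Small PTHrP medians also changed sign. With centring on all probe sets those in the WT line went from -0.08 to 0.11 (replication) and from -0.07 to 0.12 (mitosis), and that of mitosis over both lines from -0.04 to 0.08. With no filter or each probe set on its own, these mitosis medians lay between 0.01 and 0.02, and that of replication in the WT line was 0.02 with each probe set on its own. Centring on all probe sets moved the median PTHrP difference of all kept genes in the WT line from 0.03 to 0.22 and called 25 genes over both lines, where 0 were called here. Without the WT control array, a choice made after the data were seen, the receptor medians were -0.16 for replication and -0.22 for mitosis, and the PTHrP medians 0.05 and 0.02 (0.03 and -0.04 with it). By construction these repeat the medians between the lines under PTHrP and of PTHrP in the R150C line, so they are no separate check. One array per group limits the precision of every value.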

Other observations

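From the list of E2F, Rb and DREAM genes, none of the following passed limma's test. They were chosen after their values were seen. E2f1, an activating E2F that is itself an E2F target, read 330.9 (WT control), 384.2 (WT PTHrP), 230.4 (R150C control) and 314.1 (R150C PTHrP), with differences of -0.53 in control medium and -0.30 under PTHrP. Foxm1, an activator of mitotic genes, went the other way in control medium, with 152.3 and 179.3 against 222.4 and 181.6 and differences of 0.47 and 0.00. Mybl2, which encodes B-Myb, had 0.23 and -0.41. Rbl1, which encodes the pocket protein p107, read 146.0, 96.4, 87.9 and 79.3, so that the WT control array was the highest. The S phase checkpoint kinase gene Chek1 (-0.41 and -0.44) and Uhrf1, which maintains DNA methylation at the fork (-0.56 and -0.23), lay below 0 in both media. Rb1 itself had 0.23 and 0.12.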
